A study of Mus musculus with 15 samples.

Results

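Replication-dependent histone genes encode the core histones H2A, H2B, H3 and H4 and the linker histone H1, the proteins that package newly copied DNA. Members were taken as every gene whose symbol in the GENCODE vM21 annotation places it in the Hist1, Hist2, Hist3 or Hist4 cluster as an H1, H2A, H2B, H3 or H4 gene, with symbols marked as pseudogenes left out. The rule gave 69 genes: 6 for H1, 20 for H2A, 18 for H2B, 12 for H3 and 13 for H4. Of these, 56 lie in the Hist1 cluster on chromosome 13, 10 in Hist2 on chromosome 3, 2 in Hist3 on chromosome 11 and 1 in Hist4 on chromosome 6. At least 1 deposited table listed 57 of the 69, out of 37740 genes listed in all.

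The samples were regulatory T (Treg) cells, taken from lymph nodes and spleen, of female C57BL/6 mice whose 2 Dock8 alleles were floxed and which carried a YFP-Cre fusion in Foxp3 on 1 of their X chromosomes. Cells were sorted on CD25 and CD39, with CD3 as the further marker in one protocol text and CD4 in another, and were then kept in culture for 16 h. YFP+ cells, in which Cre had been active, are called KO here, and YFP- cells from such mice are called WT, so that KO cells also differed from WT cells in carrying YFP and Cre. The 4 groups were KO cells given 1 bead per cell coated with antibodies to CD3 and CD28 (n = 2), WT cells with the same beads (n = 3), KO cells in medium alone (n = 6) and WT cells in medium alone (n = 4). The design text calls the samples of each group independent, except the 2 KO samples with beads, without naming the mice or cultures, and the p-values reflect how these libraries spread, which may be technical.

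Most cellular mRNAs end in a poly(A) tail, but the mRNA of a replication-dependent histone gene usually ends shortly after a short hairpin, which is bound by the stem-loop binding protein SLBP and takes the place of the tail. These mRNAs are made and kept while a cell copies its DNA and are degraded when replication stops, so that they serve as a readout of S phase. Some of the genes carry a polyadenylation signal beyond the hairpin, which cells that no longer divide can use. The libraries were made with Smart-Seq2, which copies RNA from its poly(A) tail, so the values below describe the tailed part of histone RNA, or RNA copied from internal A-rich stretches, and not all histone mRNA.

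The hairpin was looked for only in the annotated transcript of each gene that runs farthest past its stop codon. Other transcripts of a gene were not searched. The hairpin was defined as a perfect 6-base stem that begins with GG around a 4-base loop that begins with TT. It was found in 43 of the 69 members, 21 to 58 bases after the stop codon (median 31). Of the others, 15 members have under 30 bases annotated after the stop codon, 2 (Hist1h2aj and Hist1h2al) are annotated as pseudogenes with no stop codon, and in 9 members with a longer annotated end no such hairpin was found. These sequences are shown because the hairpin is typical of this gene family. The values themselves describe RNA with a tail, or RNA copied from internal A-rich stretches, and not RNA that ends at the hairpin. The stem is in capitals and the loop in lower case, as DNA from the GENCODE vM21 transcripts.
Hist1h2ap (chromosome 13, 1 of 25 members with this hairpin, none of them H4): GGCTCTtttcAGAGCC
Hist1h3c (chromosome 13, 1 of 6 members, none of them H4): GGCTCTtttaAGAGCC
Hist2h2ac (chromosome 3, the only such member): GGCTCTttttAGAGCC
Hist4h4 (chromosome 6, 1 of 7 members, all of them H4): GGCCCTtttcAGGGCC
Hist1h4i (chromosome 13, 1 of 2 members, both H4): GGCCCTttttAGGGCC
Hist1h4j (chromosome 13, 1 of 2 members, both H4): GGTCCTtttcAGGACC
The 11 H4 hairpins differ from the 32 of the other classes in the stem, while the loops overlap between the classes.

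Promoters were read from RefSeq (GRCm38.p6), as 250 bases before to 50 bases after a gene's start, for 61 of the 69 members. Each was searched on both strands for 3 motifs: the TATA box TATAAA, which positions the transcription machinery, the CCAAT box (these letters alone), which NF-Y binds, and the octamer ATTTGCAT, which POU factors such as Oct-1 bind. The octamer is known as an element of H2B promoters. Windows with the TATA box made up 57.4% of the 61 members against 13.6% of all 32544 promoters of that length, windows with a CCAAT box 85.3% against 37.4%, and windows with the octamer 23.0% against 1.75%. By class, a CCAAT box was found in every window of H1, H2A, H2B and H3 members and in 3 of 12 H4 windows. The octamer was found in 7 of 17 H2A windows, 7 of 16 H2B windows and no other. In 9 pairs the windows of 2 members on opposite strands overlapped, and each pair was an H2A with an H2B gene, so that part of the H2A and H2B counts come from the same bases. The windows printed here are those of 3 members called higher with beads in at least 1 genotype. Hist1h2ap, the remaining member called higher, is not among the 61 with a window. An H2B and an H4 member follow, whose log2 differences with beads were also above 0 but were not called. The 3 motifs are in capitals on either strand.
Hist1h1b, chr13:21780576-21780875, minus strand: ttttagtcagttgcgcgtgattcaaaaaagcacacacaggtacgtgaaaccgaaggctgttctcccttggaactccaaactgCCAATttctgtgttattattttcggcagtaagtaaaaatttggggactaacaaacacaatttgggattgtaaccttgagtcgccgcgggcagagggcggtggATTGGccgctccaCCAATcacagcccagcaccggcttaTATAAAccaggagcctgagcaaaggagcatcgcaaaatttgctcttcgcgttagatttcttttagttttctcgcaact
Hist2h3b, chr3:96268404-96268703, plus strand: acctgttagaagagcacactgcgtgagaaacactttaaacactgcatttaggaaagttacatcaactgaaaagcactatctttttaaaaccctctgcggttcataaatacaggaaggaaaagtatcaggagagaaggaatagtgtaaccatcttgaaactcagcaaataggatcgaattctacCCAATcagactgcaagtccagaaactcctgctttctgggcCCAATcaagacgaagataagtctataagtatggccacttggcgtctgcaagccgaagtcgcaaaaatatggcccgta
Hist2h3c2, chr3:96239078-96239377, minus strand: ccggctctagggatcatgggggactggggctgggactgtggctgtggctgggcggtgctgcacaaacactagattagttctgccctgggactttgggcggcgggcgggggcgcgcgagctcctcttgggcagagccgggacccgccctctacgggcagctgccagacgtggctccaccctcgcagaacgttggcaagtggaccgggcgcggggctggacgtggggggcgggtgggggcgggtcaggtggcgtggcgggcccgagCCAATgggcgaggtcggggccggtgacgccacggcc
Hist1h2bg, chr13:23571150-23571449, plus strand: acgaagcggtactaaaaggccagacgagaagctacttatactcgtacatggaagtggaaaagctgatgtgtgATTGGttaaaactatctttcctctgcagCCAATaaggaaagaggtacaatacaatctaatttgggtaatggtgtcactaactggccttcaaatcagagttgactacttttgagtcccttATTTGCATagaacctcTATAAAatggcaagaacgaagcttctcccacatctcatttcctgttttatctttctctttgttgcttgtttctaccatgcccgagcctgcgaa
Hist1h4d, chr13:23581318-23581617, plus strand: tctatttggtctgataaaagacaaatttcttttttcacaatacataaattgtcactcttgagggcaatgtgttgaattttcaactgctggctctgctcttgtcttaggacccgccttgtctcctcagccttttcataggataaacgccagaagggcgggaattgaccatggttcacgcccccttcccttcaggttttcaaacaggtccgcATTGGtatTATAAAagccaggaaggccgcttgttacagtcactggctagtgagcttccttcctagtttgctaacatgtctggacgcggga
Hist1h1b holds a TATA box and CCAAT boxes, while Hist2h3b and Hist2h3c2 hold CCAAT boxes and no TATAAA. Hist1h2bg, whose window overlaps that of Hist1h2ae by 279 bases, is the only one of the 5 with the octamer. Hist1h4d holds a TATA box and also a CCAAT box, which was found in only 3 of 12 H4 windows. A match is a run of letters and was not tested as a binding site.

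Values were deposited as TPM (transcript abundance scaled to a fixed library total), which are set per length and can be compared between genes. They keep no record of sequencing depth, which is therefore unknown for every library. Dock8, the floxed gene, had 7.90 and 5.82 TPM in KO cells with beads against 8.71, 10.1 and 8.91 TPM in WT cells with beads. Without beads it had 11.9, 6.70, 9.44, 7.84, 7.63 and 7.95 TPM in KO cells against 13.7, 13.7, 9.15 and 22.0 TPM in WT cells. KO values lay below WT values with beads and overlapped them without, and the log2 difference of -0.67 without beads (SE 0.27) had a limma adjusted p of 0.369. A group of 13 repeat-derived predicted genes took 12.4 to 19.1% of TPM in KO and 8.05 to 14.4% in WT cells with beads, against 25.4 to 49.2% in KO and 15.1 to 35.2% in WT cells without beads. Because TPM are shares of a library, this moves every other value, and its part in the results was not tested beyond the rescaled values given below. Of the 4284 genes averaging 20 TPM or more, 485 were listed at 0 in some library, so a histone gene at 0 is described only as listed at 0. Foxp3, which defines Treg cells, was above 0 in all 15 libraries, with KO below WT values in both conditions. Its values were 6.29 to 25.98 TPM in KO against 29.3 to 51.6 TPM in WT cells without beads. They were 42.2 and 42.7 TPM in KO against 88.6 to 105.8 TPM in WT cells with beads. For the 7 Treg markers the median log2 difference (KO minus WT) was -0.76 without beads and 0.06 with beads. None of them was called, but 4 were lower in KO cells without beads and 1 with beads at a limma unadjusted p under 0.05. The part of this in the histone values was not tested.

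With beads, histone RNA was higher in every library of both genotypes than in any library without beads, and most of the gain lay in H2A and H3. Summed over all listed members, histone TPM were 356 and 773 in KO cells with beads and 641, 1370 and 951 in WT cells with beads. Without beads the sums were 115, 122 and 240 (lowest, median and highest of 6) in KO cells and 248, 176, 110 and 170 in WT cells. The group means with beads were 3.93 times those without in KO cells and 5.61 times in WT cells, with no p given because the members were summed. The ratio in KO cells was 2.48 without KO library 5 and 5.38 without KO library 4. It also moved with the scaling of the libraries. In KO cells it was 2.9 after scaling to 893 abundant genes, 4.43 under median-ratio scaling and 3.07 after rescaling without the repeat-derived genes. In WT cells the ratios under these scalings were 5.74, 8.38 and 4.71. In these bulk samples more cells in S phase and more histone RNA per cell cannot be told apart.

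The classes did not share the gain equally. H2A sums had a mean ratio of 6.3 in KO and 9.41 in WT cells, and H3 sums 9.96 in KO and 8.51 in WT cells. H1 sums had ratios of 2.15 in KO and 2.52 in WT cells, and H2B sums 1.55 in KO and 2.06 in WT cells. H4 sums had ratios of 1.30 in KO and 2.00 in WT cells. Single libraries moved the KO ratios: H3 had 4.97 without KO library 5 of the bead set and 17.8 without the unnumbered unstimulated library, and H2A had 3.6 without KO library 5 of the bead set. Over members listed in both sets alone, the ratios were 7.13 in KO and 9.98 in WT cells for H2A, 6.24 in KO and 6.76 in WT cells for H3, 2.47 in KO and 2.83 in WT cells for H1, and 1.78 in KO and 2.61 in WT cells for H4. For H2B they were 1.35 in KO and 1.18 in WT cells, so most of the H2B gain in WT cells came from the members that only the bead tables list. In KO cells the H4 ratio was 0.949 after scaling the libraries to 893 abundant genes and 0.902 without KO library 5, so it had no steady direction there. Every other class ratio stayed above 1 under that scaling, under median-ratio scaling over 15083 genes and after rescaling without the repeat-derived genes, and also with each library left out in turn.

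**Figure D1:**
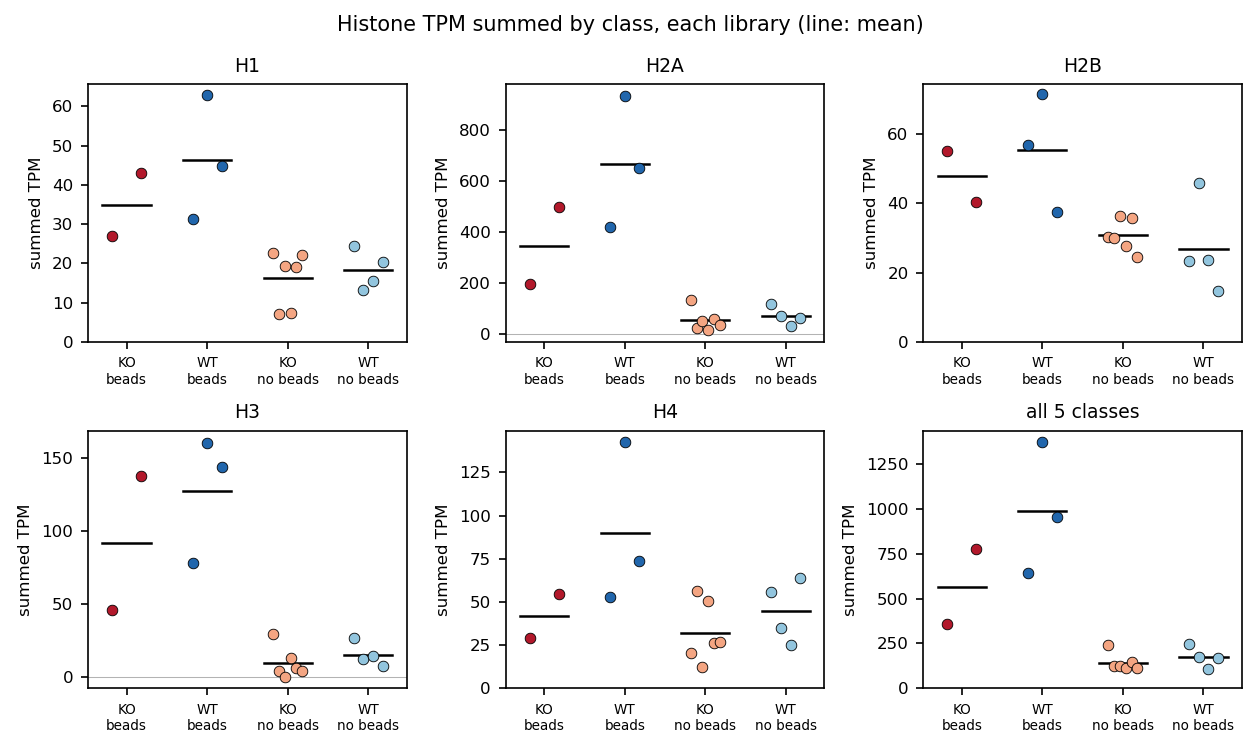
Summed TPM of the listed histone members (y axis) for each class and for all 5 classes, by group (x axis), with 1 point per library and a line at the group mean. The bead libraries of both genotypes stand above all libraries without beads for H1, H2A, H3 and the total, while H2B overlaps in WT cells and H4 in both genotypes.

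A single gene made up the largest share of the total in every bead library. Hist1h2ap, an H2A gene of the Hist1 cluster (ENSMUSG00000094777, mm10, chromosome 13, 21833026 to 21833507, minus strand), had 168 and 445 TPM in KO cells with beads against 0, 6.96 and 102 TPM (lowest, median and highest) in KO cells without. In WT cells it had 331, 821 and 576 TPM with beads against 87.3, 41.7, 0 and 0 TPM without. The bead and unstimulated libraries did not overlap in either genotype, and without beads 3 of 6 KO and 2 of 4 WT libraries were listed at 0. It made up 47.3 and 57.5% of histone TPM in KO cells with beads and 51.6, 59.9 and 60.5% in WT cells with beads. Without Hist1h2ap, the remaining members summed to 2.19 times as much with beads as without in KO cells and to 2.86 times as much in WT cells.

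Hist1h2ap is close to indistinguishable from its neighbour Hist1h2ao: 93.4% of its 31-base stretches also occur in Hist1h2ao, and only 6.60% in no other gene. Hist1h2ao was listed for the unstimulated libraries alone, where it reached 23.1 TPM in KO library 1 and 22.4 TPM in KO library 5, both with Hist1h2ap at 0. Added together, the pair had 168 and 445 TPM in KO cells with beads against 0 to 102 TPM in KO cells without, and 331 to 821 TPM in WT cells with beads against 3.07 to 87.3 TPM in WT cells without. The split between the pair therefore depends on how shared reads were assigned, while the sum still separated the bead libraries from the others.

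Which histone genes were listed at all also differed between the sets. Of the members, 47 were listed for bead libraries and 40 for unstimulated libraries, with 30 in both, 17 in the bead tables alone and 10 in the unstimulated tables alone. Every listed gene had values above 0 in no fewer than 2 libraries of the set. Of the members in the bead tables, a share of 36.2% was missing from the unstimulated tables, against 2.63% of all genes in the bead tables. Of the members in the unstimulated tables, a share of 25.0% was missing from the bead tables, against 16.1% of all genes there. The members listed with beads alone were led by H2A and included Hist1h2ab, Hist1h2ae, Hist1h2af, Hist1h2ag, Hist1h2ah, Hist1h2ak, Hist1h2an and Hist2h2aa1 for H2A, Hist1h2bb, Hist1h2bf, Hist1h2bk and Hist1h2bn for H2B, Hist1h3c, Hist1h3g and Hist1h3h for H3, and Hist1h1d and Hist1h4m. They had a median of 24.7% of 31-base stretches found in no other gene, against 57% for the 30 members in both sets, and their highest value was 52.1 TPM, for Hist1h3h in KO library 5.

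The 10 members listed for unstimulated libraries alone were Hist1h1a, Hist1h1t, Hist1h2ac, Hist1h2al, Hist1h2ao, Hist3h2ba, Hist1h3b, Hist1h4a, Hist1h4h and Hist1h4n, and none exceeded 23.1 TPM. Hist1h1t, the testis linker histone, was above 0 in 3 of 6 KO libraries and listed at 0 in all 4 WT libraries. Hist1h4h was the most often seen of the H4 genes among them, above 0 in 3 of 6 KO and 2 of 4 WT libraries, with up to 19.9 TPM in KO and 21.7 TPM in WT cells. The 12 members in no table were Hist1h2ad, Hist1h2ai, Hist1h2aj, Hist2h2ab, Hist1h2ba, Hist1h2bh, Hist1h2bl, Hist1h2bm, Hist2h2bb, Hist1h3i, Hist1h4b and Hist1h4k. Of these, 7 have no base annotated after the stop codon. Among the 30 members in both sets, values at 0 made up 22.0% with beads, against 15.3% for all genes in both sets, and 43.0% without beads, against 17.7% for all genes.

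**Figure D2:**
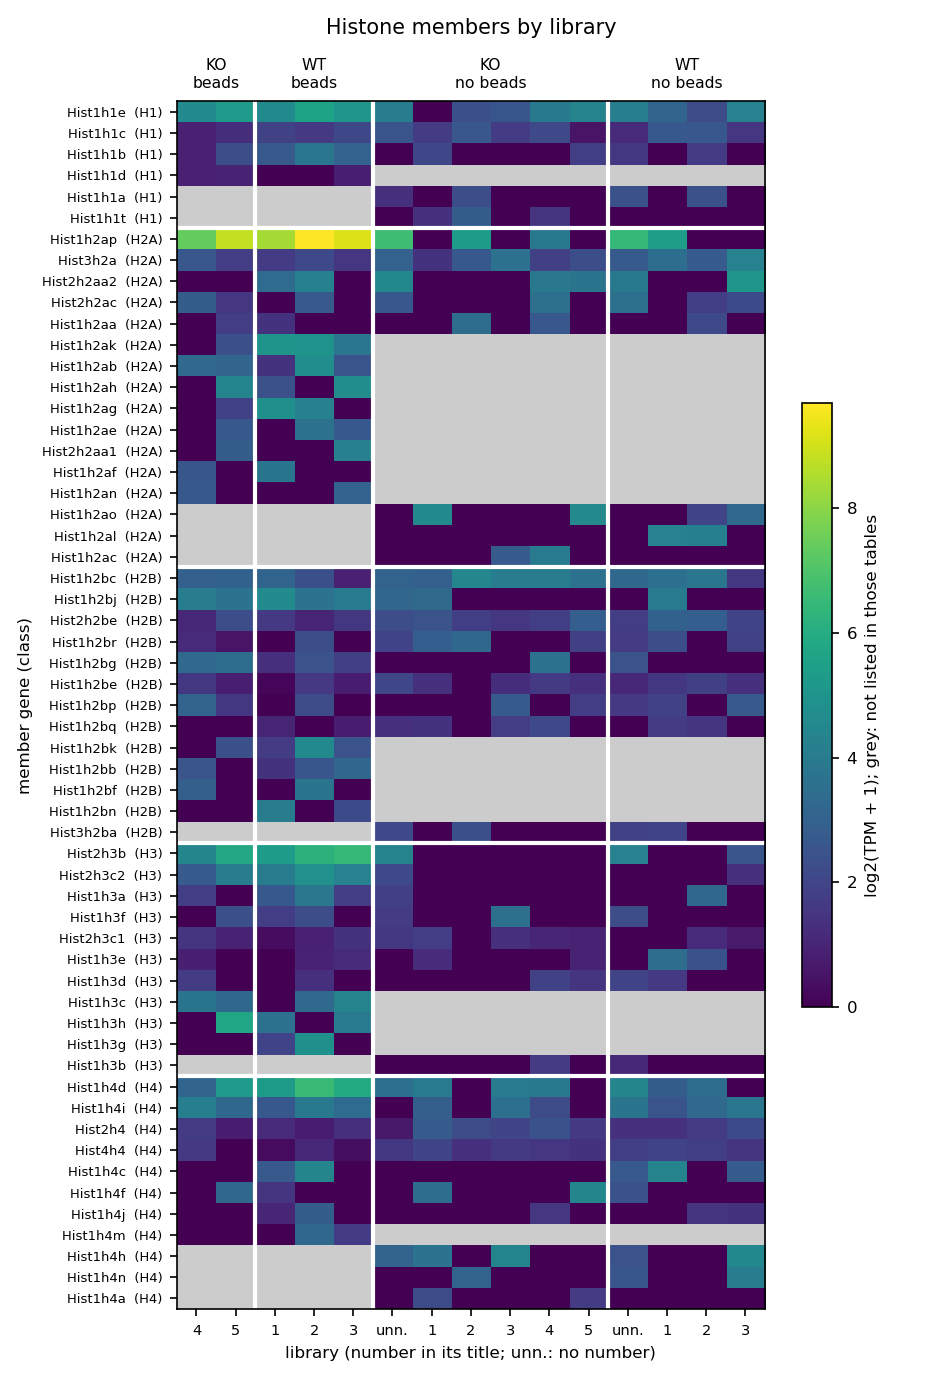
log2(TPM + 1) of the 57 listed members (rows, by class) in the 15 libraries (columns, by group and title number). Grey marks members that the tables of that set do not list, and the darkest colour is a value of 0. Of the 30 members listed in both sets, 16 are above 0 in all 5 bead libraries, among them Hist1h2ap, Hist2h3b, Hist2h3c2 and Hist1h4d. Many other members are above 0 in only part of each group.

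All 30 members listed in both sets passed the filter on low values and were among the 29989 genes tested. In KO cells 2 of 30 members were called higher with beads and none lower, where 5.95% of all genes were called higher and 2.15% lower. The count called higher in KO cells was thus near the share over all genes. In WT cells 4 of 30 were called higher and none lower, where 4.60% of all genes were called higher and 6.63% lower. The median log2 difference of the members was 0.18 in KO cells, against -0.23 for all genes tested, and -0.08 in WT cells, against -0.44 for all genes. The count in KO cells was 0 without KO library 5 of the bead set and 1 without KO library 4 of that set or any one of KO libraries 1, 2, 3 and 5 of the unstimulated set. The count in WT cells was 1 without any one of the 3 WT bead libraries and 2 without WT library 3 of the unstimulated set.

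Among the H3 genes, Hist2h3c2 (ENSMUSG00000081058, mm10, chromosome 3, 96238108 to 96239127, minus strand) was called in both genotypes. It had 5.82 and 15.9 TPM in KO cells with beads, and without beads it was listed at 0 in 5 of 6 KO libraries and had 3.43 TPM in the unnumbered one. In WT cells it had 15.7, 28.7 and 18.4 TPM with beads against 0, 0, 0 and 1.56 TPM without. All bead libraries exceeded all libraries without beads, and the log2 difference was 3.07 in KO cells (SE 0.62, limma adjusted p = 0.00638) and 4.07 in WT cells (SE 0.58, limma adjusted p = 0.000709). In WT cells it was called under all 29 alternatives, and in KO cells it was not called without KO library 5 of the bead set (limma adjusted p = 0.174) or without the 4 KO libraries over 35% repeats (0.121).

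Hist2h3b (ENSMUSG00000074403, mm10, chromosome 3, 96268654 to 96269141, plus strand), a further H3 gene of the same cluster, had 20.4 and 56.1 TPM in KO cells with beads. In KO cells without beads it was listed at 0 in 5 of 6 libraries and had 19.4 TPM in the unnumbered one. WT cells had 39.5, 74.6 and 86.2 TPM with beads against 18.4, 0, 0 and 4.92 TPM without. The groups did not overlap, though in KO cells the lowest bead library was only just above the unnumbered library without beads. The log2 difference was 4.40 in KO cells (SE 1.19, limma adjusted p = 0.0336) and 4.30 in WT cells (SE 1.12, limma adjusted p = 0.0221). The KO call was lost without any one of KO libraries 1 to 5 of the unstimulated set (limma adjusted p 0.0521 to 0.0571) or without either KO bead library (0.129 and 0.334). The WT call was lost without WT library 1 or 2 of the unstimulated set (0.0643 and 0.0658) or without any one of the 3 WT bead libraries (0.0508 to 0.0862).

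Hist2h3b and Hist2h3c2 share 80.6% and 64.2% of their 31-base stretches with Hist2h3c1, so that the values of the 3 genes are not independent. Hist2h3c1 itself, whose annotated end carries a polyadenylation hexamer, had 1.76 and 0.896 TPM in KO and 0.252, 0.848 and 1.69 TPM in WT cells with beads, and at most 2.37 TPM without. Its log2 difference with beads was 0.08 in KO cells (SE 0.49, 95% interval -0.98 to 1.13) and 0.40 in WT cells (SE 0.46, 95% interval -0.58 to 1.39). The 3 genes together had 27.9 and 73.0 TPM in KO cells with beads against 0 to 24.8 TPM in KO cells without, and 55.5 to 106 TPM in WT cells with beads against 0 to 18.4 TPM in WT cells without.

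Of the H3 genes listed for bead libraries alone, Hist1h3h had 0 and 52.1 TPM in KO and 11.6, 0 and 14.4 TPM in WT cells. Hist1h3c had 12.5 and 8.64 TPM in KO and 0, 9.01 and 19.1 TPM in WT cells. Hist1h3g was at 0 in both KO libraries and had 2.88, 27.7 and 0 TPM in WT cells. All 3 were thus uneven within a group, and they have no bead test. Of those in both sets, Hist1h3a was above 0 in all 3 WT bead libraries, at 5.36, 13.3 and 2.37 TPM, and in 1 of the 4 WT libraries without beads, at 8.38 TPM. Its log2 difference in WT cells was 1.95 (SE 0.79, limma adjusted p = 0.13). Hist1h3d, Hist1h3e and Hist1h3f had no value above 10.9 TPM in any library, and their log2 differences lay between -0.78 and 0.78 in both genotypes.

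Of the H1 genes, which hold linker DNA between nucleosomes, Hist1h1b (H1.5; ENSMUSG00000058773, mm10, chromosome 13, 21779883 to 21780625, minus strand) was called in WT cells alone. It had 0.835 and 4.01 TPM in KO cells with beads against 0, 0 and 3.14 TPM (lowest, median and highest) without. WT cells had 5.47, 12.9 and 7.34 TPM with beads against 2.00, 0, 2.26 and 0 TPM without. The groups were apart in WT cells and overlapped in KO cells, with log2 differences of 0.96 in KO (SE 0.71, limma adjusted p = 0.483) and 2.36 in WT cells (SE 0.67, limma adjusted p = 0.0325). The difference between these bead responses was -1.41 (SE 0.97, limma adjusted p = 0.999) and was not called. The WT call was lost without WT library 1 or 3 of the unstimulated set (limma adjusted p = 0.0890 and 0.0779) or without any one WT bead library (0.0632 to 0.131).

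Hist1h1e (H1.4) had the highest H1 values, with 24.3 and 36.8 TPM in KO cells with beads against 0, 9.51 and 19.1 TPM without, and 23.2, 47.8 and 33.3 TPM in WT cells with beads against 16.8, 7.76, 3.79 and 18.6 TPM without. The bead libraries were above the others in each genotype. The log2 differences of 2.07 in KO (SE 0.89, limma adjusted p = 0.19) and 1.64 in WT cells (SE 0.83, limma adjusted p = 0.227) did not pass the threshold. Hist1h1c (H1.2), which has a polyadenylation hexamer at its annotated end, was at 0.871 and 1.42 TPM in KO and 2.75, 2.05 and 3.31 TPM in WT cells with beads, against 0.414, 2.89 and 5.16 TPM in KO cells and 1.29, 5.39, 5.20 and 1.86 TPM in WT cells without. Its log2 differences were -0.79 in KO (SE 0.56) and -0.13 in WT cells (SE 0.52), and its groups overlapped.

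For H2A, Hist1h2ap had a log2 difference of 5.45 in KO cells (SE 1.93, limma adjusted p = 0.103) and 6.11 in WT cells (SE 1.80, limma adjusted p = 0.0401). In KO cells it was called without the unnumbered library (6.26, limma adjusted p = 0.0424). The WT call was lost without WT library 2 or 3 of the unstimulated set (limma adjusted p = 0.111 and 0.0981), without any one WT bead library (0.0899 to 0.125) and, through the shared estimate of the spread, without either KO bead library (0.0508 and 0.0509). Hist3h2a, the H2A gene of the Hist3 cluster, went the other way in WT cells, with 2.23, 3.43 and 1.88 TPM with beads against 5.73, 10.2, 5.89 and 18.5 TPM without. Its groups did not overlap, but the log2 difference of -1.54 (SE 0.53) had a limma adjusted p of 0.0729. In KO cells it had 5.16 and 2.36 TPM with beads against 1.65, 4.71 and 11.1 TPM without, which overlapped.

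Hist2h2aa2 and Hist2h2ac, H2A genes of the Hist2 cluster, and Hist1h2aa, a testis H2A gene, were each listed at 0 in 6 or more of the 15 libraries, and none was called. All 31-base stretches of Hist2h2aa2, like those of Hist2h3c1, occur in an overlapping annotated gene, Gm20634 (ENSMUSG00000070392). Together with Hist2h2aa1 it had 0 and 6.24 TPM in KO and 9.43 to 18.1 TPM in WT cells with beads, against 0 to 22.0 TPM in KO and 0 to 32.8 TPM in WT cells without beads.

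No H2B gene was called, and the members of the class went both ways. Hist1h2bj had 16.3 and 11.8 TPM in KO cells with beads against 0, 0 and 9.26 TPM without, and 24.8, 12 and 14.7 TPM in WT cells with beads against 0, 14.9, 0 and 0 TPM without. Its log2 differences of 2.80 in KO (SE 1.13, limma adjusted p = 0.157) and 3.12 in WT cells (SE 1.06, limma adjusted p = 0.0697) did not pass the threshold. In WT cells the value was called without WT library 1 of the unstimulated set (4.12, limma adjusted p = 0.0143). Hist1h2bg had 8.85 and 10.4 TPM in KO cells with beads, against 0 in 5 of 6 KO libraries and 11.6 TPM in library 4 without, and was called there without that library (log2 difference 3.41, limma adjusted p = 0.00362) and not with it (2.80, SE 0.90, limma adjusted p = 0.0723).

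Hist1h2bc had 6.82 and 7.13 TPM in KO and 7.65, 4.20 and 0.845 TPM in WT cells with beads, against 6.74, 13.9 and 21.4 TPM in KO and 8.37, 10.5, 13.0 and 2.00 TPM in WT cells without. Its groups overlapped in both genotypes. Its log2 differences with beads were -0.73 in KO (SE 0.63) and -0.91 in WT cells (SE 0.59). Hist2h2be had 1.15 and 3.93 TPM in KO and 2.04, 0.978 and 1.94 TPM in WT cells with beads, against 1.90, 3.22 and 6.34 TPM in KO and 2.38, 6.95, 6.39 and 2.88 TPM in WT cells without. In WT cells its bead libraries lay below all others, at a log2 difference of -1.02 (SE 0.46, limma adjusted p = 0.176). The near-identical pair Hist1h2bq and Hist1h2br, with 98.3% of the 31-base stretches of Hist1h2bq in Hist1h2br, summed to 0.41 to 1.22 TPM in KO and 0.71 to 4.00 TPM in WT cells with beads, against 2.42 to 8.30 TPM in KO and 1.75 to 6.2 TPM in WT cells without. The KO groups of this pair did not overlap and the WT groups did.

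In the H4 class Hist1h4d was the most abundant gene. It had 8.03 and 36.8 TPM in KO cells with beads against 0, 12.4 and 14.9 TPM without, and 37.8, 91.9 and 60.2 TPM in WT cells with beads against 20, 6.26, 9.68 and 0 TPM without. The WT groups were apart and the KO groups overlapped, with log2 differences of 1.64 in KO (SE 1.24, limma adjusted p = 0.492) and 3.25 in WT cells (SE 1.16, limma adjusted p = 0.0856). Hist4h4, the only gene of the Hist4 cluster, had 2.01 and 0 TPM in KO and 0.231, 1.12 and 0.297 TPM in WT cells with beads, against 1.53, 1.95 and 3.07 TPM in KO and 2.50, 2.82, 2.48 and 1.80 TPM in WT cells without. In WT cells all its bead libraries were below the others, at a log2 difference of -1.17 (SE 0.40, limma adjusted p = 0.0737), which was called without KO library 4 of the bead set (0.0496). Hist2h4 had log2 differences of -0.74 in KO (SE 0.52) and -0.55 in WT cells (SE 0.49), and its highest value was 6.07 TPM.

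**Figure D3:**
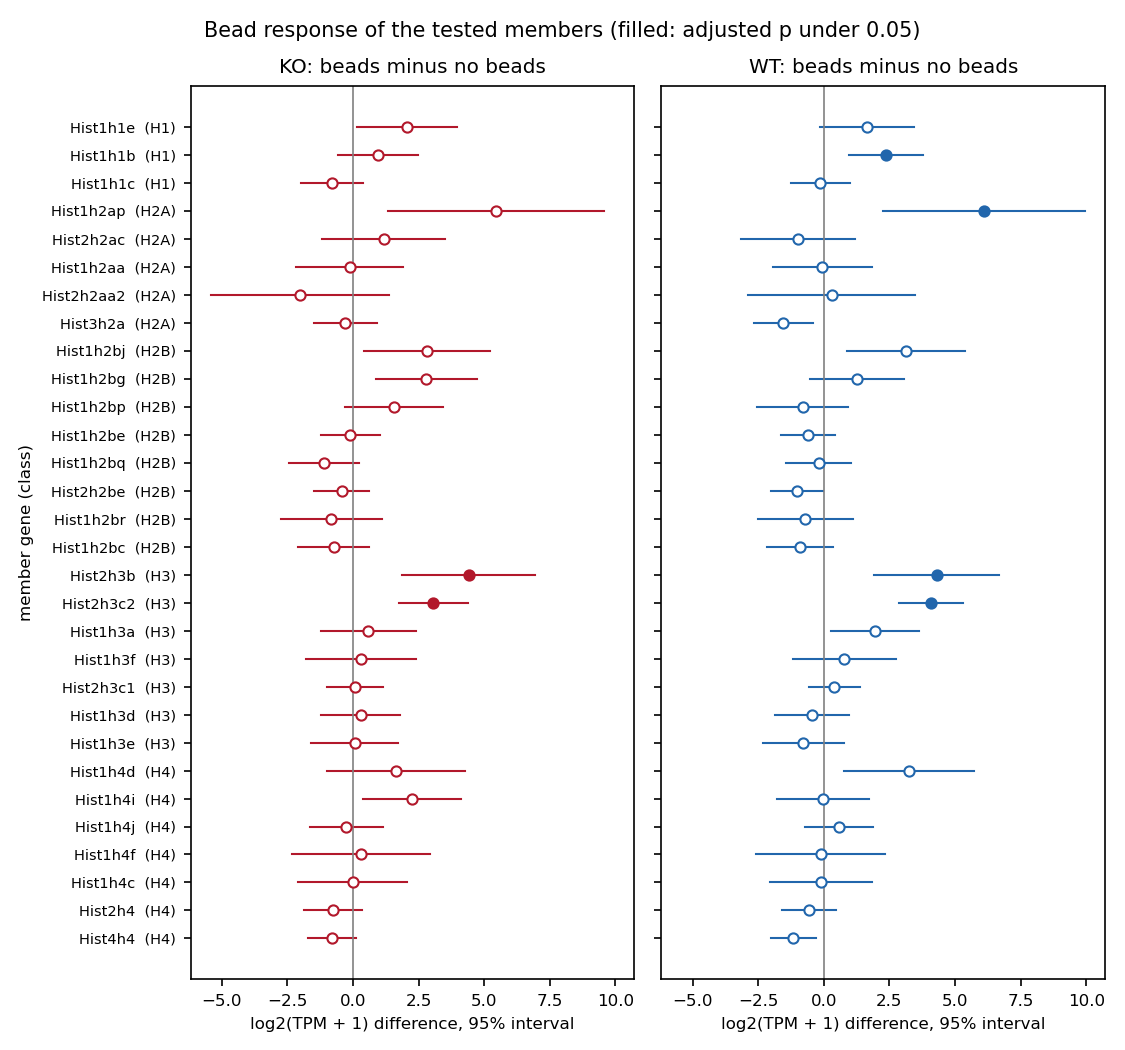
Difference in log2(TPM + 1) between cells with and without beads (x axis) for the 30 tested members (y axis, by class), in KO (left) and WT cells (right), with 95% intervals from limma. Filled points have an adjusted p under 0.05: Hist2h3b and Hist2h3c2 in KO cells, and these with Hist1h1b and Hist1h2ap in WT cells.

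The tested members were also set out by their annotated 3′ end, in the same transcript of each gene that was searched for the hairpin. Of the 30 tested members 11 have a polyadenylation hexamer (AATAAA or ATTAAA) in their last 40 annotated bases, and no member called higher with beads was among them. The other 19 are not shown to lack such a signal. Hist1h1b, which was called, has 0 bases annotated after the stop codon. Hist1h2bq holds 5 hexamers after the stop codon but before the last 40 bases, and Hist1h2bc and Hist1h4d hold 1 each. With a hexamer in the last 40 bases, 3 of 11 log2 differences were above 0 in KO cells (median -0.29, range -0.83 to 2.24) and 2 of 11 in WT cells (median -0.61, range -1.54 to 0.58). Without it, 14 of 19 were above 0 in KO cells (median 0.58, range -2.02 to 5.45) and 11 of 19 in WT cells (median 0.78, range -0.98 to 6.11). Summed over all listed members, the 16 with the hexamer had 40.5 and 26.1 TPM in KO and 15.4, 50.2 and 26 TPM in WT cells with beads, against 24.2 to 59.6 TPM in KO and 36.6 to 75.5 TPM in WT cells without. The 41 without it had 315 and 747 TPM in KO and 625, 1320 and 925 TPM in WT cells with beads, against 55.1 to 203 TPM in KO and 73.6 to 210 TPM in WT cells without. The ratio of means with beads to means without was 0.849 in KO and 0.631 in WT cells for the first set and 5.08 in KO and 7.49 in WT cells for the second. These sums count an unlisted member as 0. The first set holds 1 member listed with beads alone and 4 listed without beads alone, and the second set 16 and 6. That alone moves both ratios in the direction seen. Hist1h2ap had a mean of 306 TPM in KO and 576 TPM in WT cells with beads, out of 531 and 957 TPM for the second set. This division was chosen after the values were seen, so it is a description and has no test, and an annotated end is not the end of the RNA in these libraries.

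**Figure D4:**
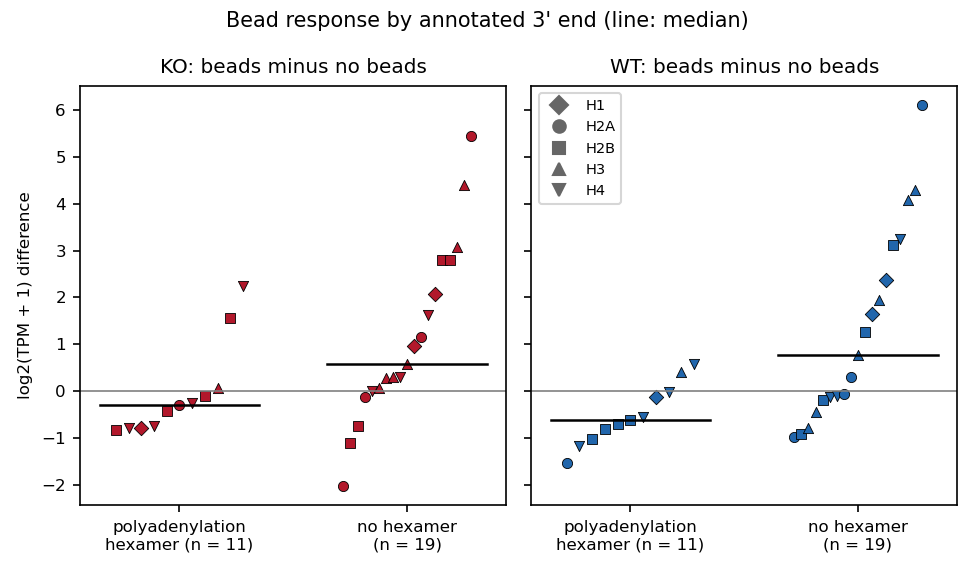
Difference in log2(TPM + 1) between cells with and without beads (y axis) for members with and without a polyadenylation hexamer in the last 40 annotated bases (x axis), in KO (left) and WT cells (right). Marker shapes give the class and lines the medians, which are -0.29 and 0.58 in KO cells and -0.61 and 0.78 in WT cells.

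No histone member differed between KO and WT cells beyond the threshold. With beads, 0 of 30 members were called between KO and WT cells, where 0.00333% of all genes were, and 1 member, Hist1h4c, had an unadjusted p under 0.05, where 2.89% of all genes did. Without beads 0 of 30 members were called, where 0.0734% of all genes were, and 2 members, Hist1h4c and Hist1h4i, had an unadjusted p under 0.05, where 11.3% of all genes did. The median log2 difference of the members was -0.05 with beads, against 0.13 for all genes, and -0.18 without, against -0.11 for all genes. Neither count lies above what these background shares give for 30 genes by more than 1 member. Tested in all genes of their own tables, 0 of 44 members were called with beads (0.113% of 22094 genes; smallest limma adjusted p = 0.297) and 0 of 40 without (0.00851% of 35236 genes; smallest limma adjusted p = 0.456). There Hist1h2ak had the smallest p with beads, at 0 and 4.18 TPM in KO against 31.2, 30.4 and 13.1 TPM in WT cells. Its log2 difference was -3.41 (SE 0.79, limma adjusted p = 0.297).

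Hist1h4c gave the smallest p of the members between genotypes. It was listed at 0 in all 6 KO libraries without beads, against 5.52, 19.2, 0 and 6.02 TPM in WT cells, and at 0 in both KO bead libraries against 5.49, 20.2 and 0 TPM in WT cells with beads. It was above 0 in WT libraries alone, in 5 of 7 of them, and passed no threshold with beads (limma adjusted p = 1) or without (limma adjusted p = 0.247). No fold is given against groups listed at 0. Hist1h4i had 16.7 and 8.37 TPM in KO and 5.40, 14.0 and 9.35 TPM in WT cells with beads, against 0, 1.85 and 10.6 TPM in KO and 12.1, 4.76, 8.91 and 13.1 TPM in WT cells without, where the log2 difference was -1.89 (SE 0.69, limma adjusted p = 0.323).

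With beads the KO total of 565 TPM on average was 0.572 times the WT mean of 987 TPM, and without beads the KO mean of 144 TPM was 0.816 times the WT mean of 176 TPM. The groups overlapped in both cases, since KO library 5 with beads lay above WT library 1. Without KO library 5 the first ratio was 0.360 and without KO library 4 it was 0.783. After scaling to abundant genes the ratios were 0.534 with beads and 1.06 without, so the direction without beads was not steady. With beads the KO mean was below the WT mean for every class as deposited, from 0.465 for H4 to 0.864 for H2B, though the H2B ratio was 1.01 without WT library 2 and the H3 ratio 1.08 without KO library 4. Over members listed in both sets the H2B ratio turned to 1.33, with 43.7 and 36.4 TPM in KO against 37.1, 31.5 and 21.4 TPM in WT cells, so H2B had no steady direction.

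The bead response itself was compared between genotypes as an interaction. None of the 30 members was called, where 0.00333% of all genes were, and none had an unadjusted p under 0.05, where 4.16% of all genes did. The median difference was 0.01 for the members and 0.27 for all genes. The smallest p belonged to Hist1h2bp, at 2.37 (SE 1.2, limma adjusted p = 0.999). For Hist2h3c2, called in both genotypes, the KO response was lower by 1.01 (95% interval of the bead response 1.76 to 4.38 in KO and 2.85 to 5.30 in WT cells), and for Hist2h3b the intervals were 1.86 to 6.94 in KO and 1.92 to 6.67 in WT cells. With standard errors of 0.59 to 2.64 on the log2 scale, a difference in response had to be large to be detectable here.

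Among genes that act with the histones in S phase, many were called higher with beads, where 5.95% of all genes were called higher in KO and 4.60% in WT cells. Of 32 genes of DNA replication, 16 were called higher in KO and 23 in WT cells and none lower, and the other 16 in KO and 9 in WT cells did not pass the threshold, with median log2 differences of 1.98 in KO and 2.07 in WT cells. They included the helicase subunits Mcm2, Mcm3 and Mcm5, the flap endonuclease Fen1, the sliding clamp Pcna and the ribonucleotide reductase subunit Rrm1. Mcm5 had 49.3 and 74.9 TPM in KO and 65.5, 92.7 and 71.0 TPM in WT cells with beads, against 1.44 to 9.42 TPM in KO and 2.37 to 13.2 TPM in WT cells without, with log2 differences of 3.83 in KO (SE 0.57, limma adjusted p = 0.000895) and 3.53 in WT cells (SE 0.53, limma adjusted p = 0.00114).

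Summed over the list, replication genes had 867 and 1234 TPM in KO and 1113, 1806 and 1343 TPM in WT cells with beads, against 177 to 329 TPM in KO and 268 to 375 TPM in WT cells without. Among the 5 bead libraries the histone total stood in the same order as this sum, from KO library 4 through WT library 1, KO library 5 and WT library 3 to WT library 2. The histone total was 0.410 and 0.627 times the replication sum in KO and 0.576, 0.759 and 0.709 times in WT cells with beads. Without beads it was 0.371 to 0.836 times in KO and 0.411 to 0.886 times in WT cells, so these ranges overlapped. Both sums come from the same libraries and share any error of their scaling.

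**Figure D5:**
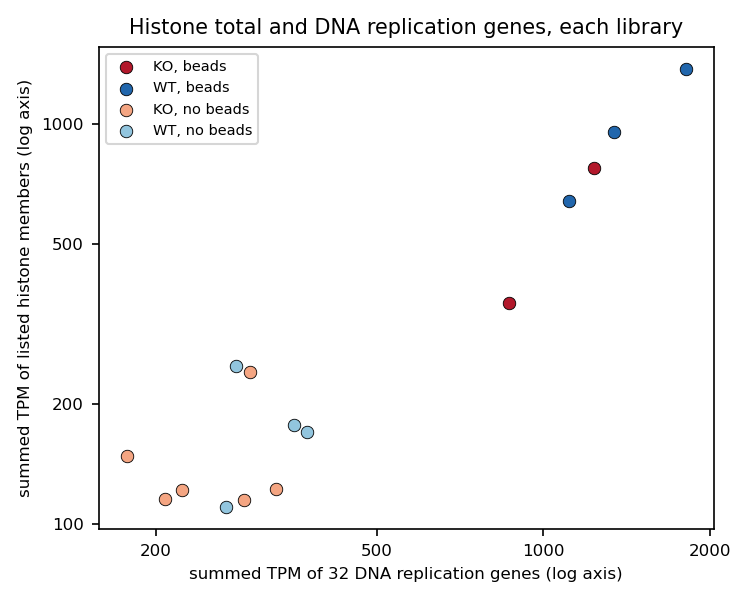
Summed TPM of the listed histone members (y axis, log scale) against the summed TPM of 32 DNA replication genes (x axis, log scale), with 1 point per library coloured by group. The 5 bead libraries lie at 867 TPM or more on the x axis and the 10 libraries without beads at 375 TPM or less.

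The machinery that makes and degrades histone mRNA was followed with 28 genes, of which 8 were called higher with beads in KO and 7 in WT cells and none lower, with median log2 differences of 0.99 in KO and 0.55 in WT cells. In KO cells the smallest p belonged to Clp1, Cstf1, Srrt and Cpsf3, of which Clp1, Cstf1 and Cpsf3 belong to the cleavage machinery, and in WT cells to Dcp2, a decapping enzyme, the cap-binding subunits Ncbp2 and Ncbp1, and Cpsf1 and Lsm1. Slbp, named for its role and after its values were seen, had 63.4 and 80.1 TPM in KO and 90.3, 97.3 and 87.2 TPM in WT cells with beads, against 17.2, 32.1 and 54.3 TPM in KO and 44.3, 36, 41.1 and 49.8 TPM in WT cells without. Its groups did not overlap, and it was called in KO (log2 difference 1.19, SE 0.35, limma adjusted p = 0.0455) and WT cells (1.09, SE 0.32, limma adjusted p = 0.0411).

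Of 20 histone chaperones and acetyltransferase genes, which carry new histones to DNA, 9 were called higher in KO and 9 in WT cells and none lower, with median log2 differences of 1.46 in KO and 1.42 in WT cells. Hat1, which acetylates new H4, rose by 2.40 on the log2 scale in KO (SE 0.67, limma adjusted p = 0.0382) and 3.22 in WT cells (SE 0.63, limma adjusted p = 0.00464). Anp32e, a chaperone of H2A.Z, rose by 3.50 in KO (SE 0.49, limma adjusted p = 0.00052) and 2.97 in WT cells (SE 0.45, limma adjusted p = 0.00121). Between genotypes no gene of these 3 lists was called with or without beads.

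Replication-independent histone variants, whose mRNAs mostly carry poly(A) tails, were followed with 10 genes of very different level. H2afz, which encodes H2A.Z, had 506 and 814 TPM in KO and 839, 1019 and 928 TPM in WT cells with beads, against 29.5 to 105 TPM in KO and 76.3 to 279 TPM in WT cells without. H3f3b, which encodes H3.3, had 304 and 341 TPM in KO and 359, 419 and 309 TPM in WT cells with beads, against 70.9 to 113 TPM in KO and 112 to 187 TPM in WT cells without. Both were called higher with beads in KO (log2 differences 3.40 and 1.82, SE 0.53 and 0.28, limma adjusted p = 0.0012 and 0.00104) and in WT cells (2.63 and 1.21, SE 0.49 and 0.26, limma adjusted p = 0.0039 and 0.00818). Of the 10 variants tested, 4 were called higher in KO and 2 in WT cells. The summed variants were 4.33 and 2.60 times the histone total in KO and 3.17, 1.63 and 2.10 times in WT cells with beads, against 2.71 to 4.10 times in KO and 3.74 to 6.40 times in WT cells without.

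Each list of markers of other cells summed to less than the histone total in every library, though not always to less than Foxp3. The 7 Treg markers summed to 301 TPM or more. In KO libraries 1 to 5 without beads, Klrb1c, of the CD8 T and NK list, had 23.5, 24.8, 25.7, 16.9 and 23.3 TPM. Foxp3 had 12.1, 9.52, 14.2, 6.29 and 11.7 TPM there. In every other library Klrb1c was below Foxp3. The 6 B cell markers summed to at most 33.8 TPM in any library, the 6 myeloid markers to at most 10.1 TPM and the 6 erythroid markers to at most 30 TPM, and none of those tested was called with beads in either genotype. The 6 CD8 T and NK cell markers summed to 23.9 and 61.5 TPM in KO and 49.4 to 65.6 TPM in WT cells with beads, against 26.3 to 49.5 TPM in KO and 31.7 to 69.2 TPM in WT cells without. Of these, Cd8a and Klrb1c were called lower with beads in WT cells (log2 differences -1.54 and -1.70, SE 0.41 and 0.40, limma adjusted p = 0.0245 and 0.0128). The part of such cells in the histone values was not tested.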

How the data were processed

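RNA from 15 Treg samples was measured by Smart-Seq2. The authors deposited 1 table per library with Ensembl gene identifiers and values that the labels give as TPM; STAR, Salmon, DESeq2 and mm10 are named in the submitters' processing notes, without versions or roles. Library sums of the deposited TPM ran from 819697 to 938139. With no depth in such values, no count model was fitted and precision rests on the spread between libraries. Groups came from the labels.

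Symbols, transcripts and coordinates came from GENCODE vM21 (GRCm38), which named 30788 of the 30949 genes in both sets of tables, and promoters from RefSeq. The 29989 genes of both sets that reached 1 TPM in 2 or more libraries were tested as log2(TPM + 1). The model, fitted in R 4.3.3 by limma 3.58.1, had a mean for each group, 11 residual degrees of freedom and the variance trend. P-values of each of the 5 contrasts were adjusted over these genes after Benjamini and Hochberg, with 0.05 as the limit for a call. The log2 scale understates changes of low genes. Class sums count an unlisted member as 0 and have no test. Sequence sharing was counted in 31-base stretches over all vM21 transcripts. The fit was tested on simulated data with known changes.

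The members, the 9 gene lists, the tests and the alternatives were chosen with earlier results of these data known. Named genes were Dock8, up to 4 of the most abundant members of each class, up to 4 members in each direction with the smallest p in each comparison, every called member, members listed in only some tables, and up to 4 called genes of each other list with the smallest p (2 where none was called). Lsm1 and Cpsf1, whose p-values are equal as printed, were both named. Alternatives covered the pseudocount, the filter, scaling, the libraries fitted, array weights, the variance trend, a replicate block and each library left out. Title numbers are shared between groups, but deviations of same-numbered libraries correlated at -0.0249 to 0.0265, so they were not treated as pairs.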

Additional observations from a re-analysis of the deposited data

Results flagged for a closer look

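In the unstimulated KO group the unnumbered library stood far from the other 5. Its summed TPM was 239.9 over all classes, against 115 to 148 in the others, and 137 for H2A, against 17.0 to 61.0. Its Hist1h2ap value was 102 TPM, against 0 to 38.3, its Hist2h3b value 19.4 TPM, its Hist2h3c2 value 3.43 TPM and its Hist1h3a value 2.56 TPM, each of these last 3 with all other libraries of the group at 0. Hist1h2bg at 11.6 TPM and Hist1h4j at 1.88 TPM were above 0 in KO library 4 alone.

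Among the 4 unstimulated WT libraries, Hist1h2bg at 4.54 TPM and Hist1h4f at 4.48 TPM were above 0 in the unnumbered library alone, Hist1h2bj at 14.9 TPM in library 1 alone, Hist1h3a at 8.38 TPM in library 2 alone and Hist2h3c2 at 1.56 TPM in library 3 alone. These 13 values were found by Dixon's test in 64 groups of values, where chance flags about 1 in 20 if values are normally distributed. Of the 13, 10 are a single value above 0 among values of 0. The ratio is then always 1.0, so that rate does not apply to them. The cause was not tested.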

How the results depend on the processing

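None of the 30 members was called between genotypes, with beads, without beads or as a difference in bead response, under any alternative run. With the replicate block, fitted without the unnumbered libraries, 4 members were called for beads in WT, 3 in KO and 0 in the other comparisons. Counts for beads in WT (4 as reported) were 1 with a pseudocount of 0.1, 8 with array weights (6 higher and 2 lower, with calls over all genes at 6042 against 3366), 6 without the 4 KO libraries over 35% repeats, and 1 to 4 with single libraries left out. Counts for beads in KO (2 as reported) were 1 with a pseudocount of 0.1, 5 with array weights (all genes 3961 against 2431), 1 with only the groups compared and 1 without the 4 KO libraries over 35% repeats, and 0 to 3 with single libraries left out. Rescaled without the repeat-derived genes, the 4 calls in WT were Hist2h3b and Hist2h3c2 higher and Hist3h2a and Hist4h4 lower (limma adjusted p = 0.0304 and 0.0449). Median-ratio scaling moved the median of all genes from -0.44 to -0.14 for beads in WT and scaling to abundant genes from -0.23 to -0.45 in KO, while the members' medians became 0.31 and 0.04. Of 2327 values of named genes under alternatives 37 lost and 27 gained a call, and none of the called changed sign. The cause was not tested. Depth is unknown, so values at 0 cannot be given a limit.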
